A study of Homo sapiens with 6 samples.

Results

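The 39 genes described here encode BRCA1 and its partners, the homologous recombination machinery and the Fanconi anemia pathway. They were taken as a named list, not by a cut on measured values, and each matched 1 of the 78932 rows of the gene count table. Earlier results of these data were known when the list was chosen. All 39 had enough reads to be tested, among 18040 tested genes. The 6 libraries hold poly(A)-enriched RNA of HCC1937 cells. Docetaxel was given at 8 nM for 24 h to the cells of 3 of them. The other 3 are controls, labelled con with no vehicle named. Both groups carry the same cell line label. HCC1937 is an established line from a breast carcinoma of a BRCA1 mutation carrier. The line is known to hold a truncating BRCA1 mutation and no intact copy. Gene-level counts cannot show this genotype, and it was not tested in these libraries. It is 1 line, and the labels give no culture density, viability or cell cycle measure. Docetaxel is a taxane that stabilises microtubules and arrests cells in mitosis.

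Homologous recombination repairs broken or stalled DNA by copying an intact sister chromatid, and it acts in S and G2 phase. The MRE11, RAD50 and NBN proteins and the nucleases that follow them trim a broken end, BRCA1 with BARD1 and PALB2 brings in BRCA2, and BRCA2 loads the strand-exchange recombinase, which its paralogs help to stabilise. The Fanconi pathway removes crosslinks between DNA strands: a core ubiquitin ligase marks the FANCD2 and FANCI proteins, which then recruit nucleases. Many of these genes are transcribed mainly in cycling cells.

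Library totals ran from 38622062 to 41675186 counts, and 99.9% of counts lay in tested genes. KRT8, KRT18 and KRT7, keratins of simple epithelium, averaged between 416 and 1812 CPM in control (counts scaled to a common library size, with TMM normalization). EPCAM, CDH1 and KRT19, also epithelial markers, averaged 0.0554, 0.645 and 0.0654 CPM in control, so these defining markers of an epithelial line were at or near 0. The label of the line, and with it the BRCA1 genotype, was not checked further. Of the fibroblast markers COL1A1 averaged 137 CPM and PDGFRB 4.37 CPM in control. DCN, LUM, COL1A2 and PDGFRA averaged at most 0.167 CPM in either group, and the summed level of 4 immune markers was at most 0.156 CPM in any library. The 3 endothelial markers summed to at most 3.55 CPM and 0 of them were called (edgeR, 0 at an unadjusted p under 0.05). KRT7, KRT8 and KRT18 were called higher with docetaxel, as were 9.14% of all tested genes. The summed level of the 6 epithelial markers came almost wholly from these 3 keratins. It ran from 2775 to 2908 CPM in control and from 3303 to 3419 CPM with docetaxel. The part of this in the results below was not tested. Library by library, the deviation of log2 CPM from the gene's mean sloped on transcript GC content (the share of G and C bases). Over 16421 genes the slope per 10 percentage points ran from -0.13 to -0.05 in control and from 0.04 to 0.10 with docetaxel. Control replicate 2 had the steepest negative slope and docetaxel replicate 1 the flattest positive one. The 3 keratins called higher had a GC content from 55.7% to 62.9%. With each library's trend with GC content and gene length entered as offsets, KRT7 and KRT8 were still called, at 1.13-fold and 1.09-fold. KRT18 was then at 1.02-fold and not called (edgeR adjusted p = 0.746).

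Most of the 39 genes stayed close to their control level after docetaxel. Under TMM scaling 2 were called higher, BABAM1 and XRCC3, and 6 lower, XRCC2, BARD1, RAD51AP1, DNA2, POLQ and BRIP1 (edgeR quasi-likelihood test, Benjamini-Hochberg adjusted p under 0.05 over all tested genes). Of all tested genes 17.0% were called, 9.14% higher and 7.82% lower. Among the 39 the log2 fold change had a median of -0.03 and was below 0 in 22, where the median over all tested genes was 0.0085 and 48.7% were below 0. The 95% confidence interval lay inside a 1.25-fold change either way for 21 genes and inside 1.5-fold for 35. The groups of libraries did not overlap for 4 genes that were higher and 10 that were lower with docetaxel, against 17.0% and 15.0% of all tested genes, or 32.0% in either direction. When each library's trend with GC content and gene length was entered as offsets in the same test, 0 of the 39 were lower and 1, UBE2T, was higher. With those offsets 1.85% of all tested genes were called lower and 2.20% higher, 4.04% in all. The median log2 fold change was then 0.04 for the 39, with 15 below 0 and 24 above. Over all 18040 tested genes it was 0.005, with 8781 below 0. At an unadjusted p under 0.05, 4 of the 39 were lower and 6 higher with offsets. Of all 18040 tested genes 2987 passed that mark with offsets, in either direction. Only edgeR was run with offsets.

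**Figure D1:**
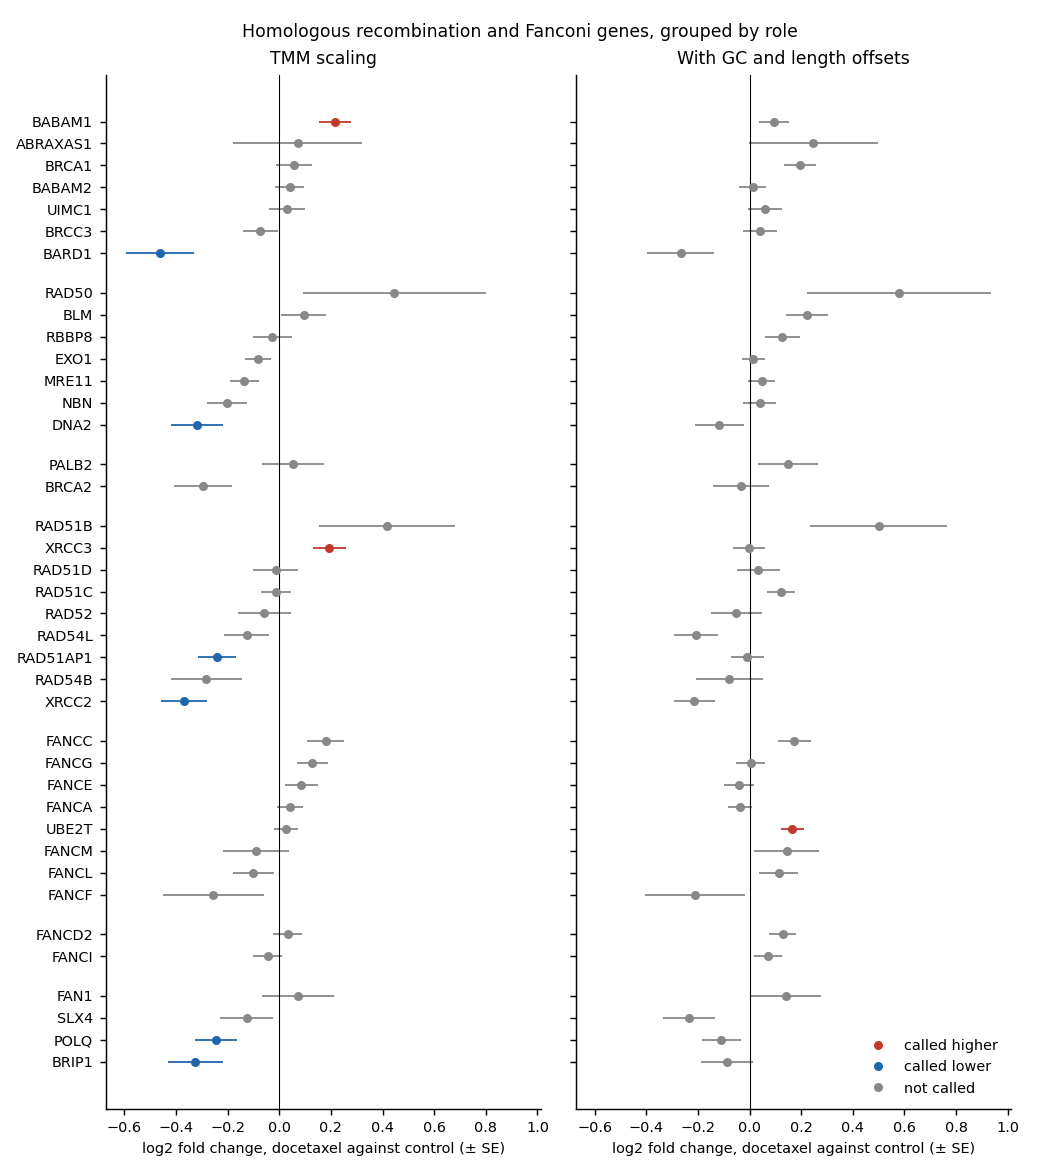
Log2 fold change, docetaxel against control, with its standard error (horizontal bars, 3 libraries each) for the 39 genes grouped by role, under TMM scaling (left) and with GC and length offsets (right). On the left 6 points are called lower and 2 higher; on the right UBE2T is the 1 gene called.

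BRCA1, a ubiquitin ligase subunit that acts in end resection and in loading of the recombinase (ENSG00000012048, GRCh38 chromosome 17, 43044295 to 43170245, minus strand), was read at 41.5, 43.8 and 37.6 CPM in control and at 41.9, 40.4 and 45.6 CPM with docetaxel. The groups overlapped. Its fold change was 1.04, with a 95% interval from 0.945 to 1.15 (edgeR adjusted p = 0.658). With offsets the BRCA1 fold was 1.14 (edgeR adjusted p = 0.0677, unadjusted p = 0.00342). BARD1, the obligate partner of BRCA1 in the ligase (chromosome 2, 214725646 to 214809711, minus strand), was at 10.4, 10.3 and 7.93 CPM in control and at 6.60, 6.69 and 7.43 CPM with docetaxel. All docetaxel libraries lay below all control libraries, and control replicate 3 was the nearest to them. BARD1 had the largest fall of the 39, to 0.725-fold (0.602 to 0.874, edgeR adjusted p = 0.0128). The call was lost without control replicate 1 or 2 and with offsets, where the fold was 0.831 (edgeR adjusted p = 0.286, unadjusted p = 0.0448).

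The other genes of this group belong to the BRCA1-A complex, which binds ubiquitin chains at breaks. BABAM1, its MERIT40 scaffold subunit (chromosome 19, 17267350 to 17281249, plus strand), was at 43.6, 44.7 and 41.8 CPM in control and at 48.1, 51.0 and 51.8 CPM with docetaxel. The groups did not overlap, and BABAM1 rose 1.16-fold (1.06 to 1.27, edgeR adjusted p = 0.0125). With offsets it was 1.07-fold and not called (edgeR adjusted p = 0.471), and the call was also lost without control replicate 3 or docetaxel replicate 2 or 3. The remaining subunits were not called under TMM scaling or with offsets. UIMC1, the ubiquitin-binding RAP80 protein, BABAM2, a scaffold, and BRCC3, the deubiquitinase, had folds of 1.02, 1.03 and 0.950. ABRAXAS1, which bridges the complex to BRCA1, had between 64 and 97 reads per library and a fold of 1.05 with an interval from 0.739 to 1.49. AC010463.1, a same-strand gene, covers 32.6% of BABAM1 exon bases on GENCODE 29. It had 0 reads, or no row of its own in the counts. MRPS18C on the opposite strand covers 25.2% of ABRAXAS1 exon bases. No source used here gives the strand setting of the counting.

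Of 7 end resection genes 1 was called lower and 0 higher, against 7.82% and 9.14% of all tested genes. DNA2, a helicase and nuclease of long-range resection (chromosome 10, 68414064 to 68472121, minus strand), was at 16.7, 17.3 and 17.2 CPM in control and at 15.9, 12.6 and 12.6 CPM with docetaxel. Docetaxel replicate 1 lay close to the controls, although the groups did not overlap. The fold was 0.802 (0.695 to 0.926, edgeR adjusted p = 0.0267). That call was lost without any of the other libraries, control or docetaxel, and with offsets (0.922-fold, edgeR adjusted p = 0.617). MRE11, the nuclease of the sensor complex, had a fold of 0.910 and NBN, its signalling subunit, 0.869, with edgeR adjusted p of 0.0957 and 0.0662. With offsets both stood at 1.03-fold. EXO1, the exonuclease that also extends resection, had a fold of 0.944, BLM, a helicase that unwinds ends and joint molecules, 1.07, and RBBP8, which starts resection with MRE11 as CtIP, 0.982. BLM stood at 1.17-fold with offsets (edgeR adjusted p = 0.124, unadjusted p = 0.00971). None of MRE11, NBN, EXO1, BLM and RBBP8 was called under TMM scaling or with offsets. Library size scaling called MRE11 and NBN lower, as did the fit without docetaxel replicate 1. NBN was also called lower with no filter on low counts and without control replicate 3.

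RAD50, the ATPase that holds MRE11 and NBN together, was measured far below its partners. The control libraries held 27, 36 and 40 of its reads, and those with docetaxel held 51, 37 and 43. Per gene length its control mean was 0.0789 RPKM (CPM per kilobase of gene length), against 8.65 for MRE11 and 2.20 for NBN. In GENCODE 29 a readthrough gene, AC116366.3, covers 79.7% of the RAD50 exon bases on the same strand. That gene had 0 reads, or no row of its own in the counts. No source used here says how reads in shared exons were assigned, and the part this played was not tested. The docetaxel libraries all lay above the controls, but the interval of the fold ran from 0.827 to 2.24 (edgeR adjusted p = 0.458).

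Neither BRCA2 nor PALB2 was called. BRCA2, the loader of the recombinase (chromosome 13, 32315474 to 32400266, plus strand), was at 10.9, 12.2 and 12.1 CPM in control and at 10.1, 9.50 and 9.14 CPM with docetaxel. The groups did not overlap, and the fold was 0.815 (0.696 to 0.955, edgeR adjusted p = 0.0678). DESeq2, library size scaling and the fit without docetaxel replicate 1 called it lower. With offsets it was 0.977-fold (edgeR adjusted p = 0.936). PALB2, which joins BRCA1 to BRCA2 (chromosome 16, 23603160 to 23641310, minus strand), was at 10.2, 10.6 and 11.0 CPM in control and at 9.12, 12.7 and 11.2 CPM with docetaxel. Docetaxel replicate 1 was below and replicates 2 and 3 above every control, and the fold was 1.04 (0.876 to 1.23, edgeR adjusted p = 0.836).

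**Figure D2:**
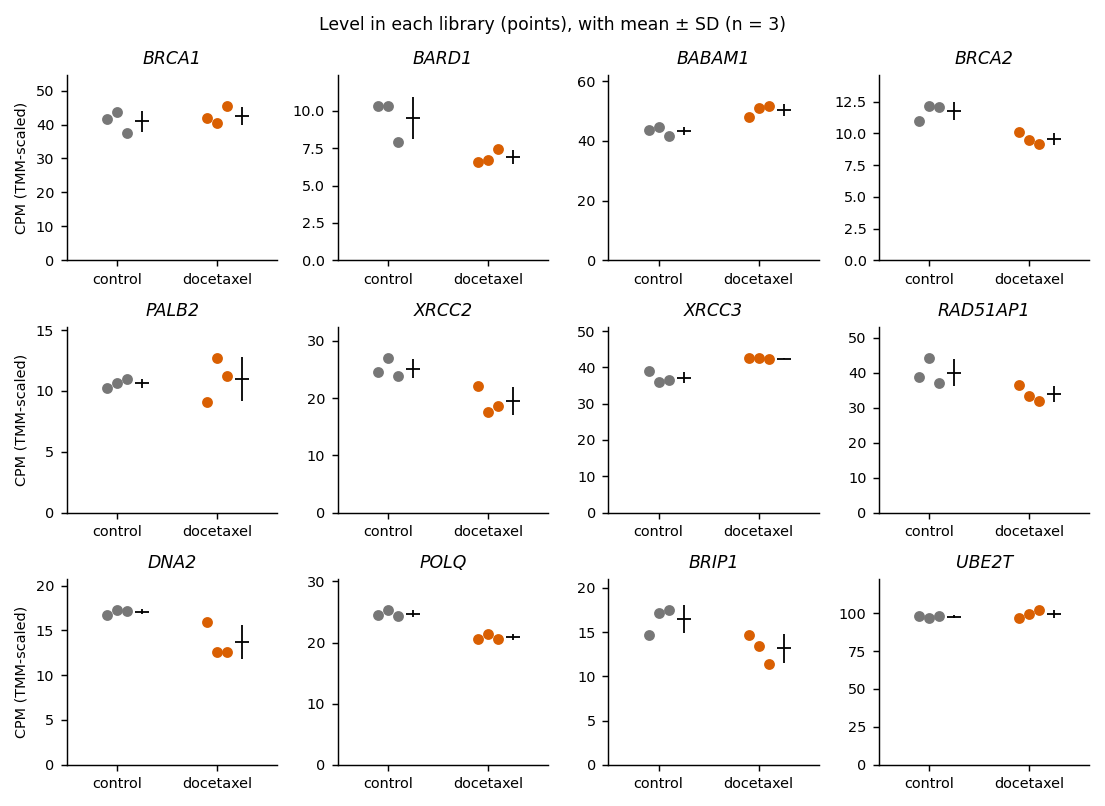
TMM-scaled CPM in each library (points) with mean ± SD (black, n = 3) for 12 of the genes; each vertical axis starts at 0. BRCA1, PALB2 and UBE2T overlap between groups, while the docetaxel libraries lie below control for BARD1, BRCA2, XRCC2, RAD51AP1, DNA2, POLQ and BRIP1 and above it for BABAM1 and XRCC3.

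Among 9 recombinase paralogs and partners 2 were called lower and 1 higher, against 7.82% and 9.14% of all tested genes. XRCC2, a paralog in the complex that remodels recombinase filaments (chromosome 7, 152644779 to 152676165, minus strand), was at 24.6, 27.1 and 23.8 CPM in control and at 22.2, 17.7 and 18.6 CPM with docetaxel. The groups did not overlap, and docetaxel replicate 1 was the nearest to control. XRCC2 had the smallest p of the 39, at a fold of 0.774 (0.682 to 0.878, edgeR adjusted p = 0.00366). Its call held in 14 of 16 alternative fits, including each fit under TMM scaling that left out 1 library. It was lost in both fits with offsets, where the fold without a replicate block was 0.862 (edgeR adjusted p = 0.132, unadjusted p = 0.0108). With offsets and 1 library left out, XRCC2 was called without docetaxel replicate 1 and in none of the other 5 such fits. RAD51AP1, which stimulates strand pairing (chromosome 12, 4538798 to 4560048, plus strand), was at 38.7, 44.3 and 37.0 CPM in control and at 36.4, 33.4 and 31.8 CPM with docetaxel. The groups were apart by a small gap, and the fold was 0.847 (0.763 to 0.939, edgeR adjusted p = 0.0208). The call was lost without control replicate 2 or docetaxel replicate 2 or 3, and with offsets the fold was 0.993 (edgeR adjusted p = 0.968).

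XRCC3, the paralog that pairs with RAD51C in resolving intermediates (chromosome 14, 103697609 to 103715504, minus strand), was at 38.9, 35.9 and 36.5 CPM in control and at 42.7, 42.5 and 42.2 CPM with docetaxel. All docetaxel libraries lay above control. The fold was 1.14 (1.04 to 1.25, edgeR adjusted p = 0.0341), and with offsets it was 0.999 (edgeR adjusted p = 0.994). The XRCC3 call held in 6 of 16 alternative fits. It was lost without control replicate 2 or 3 or any docetaxel replicate, and also with library size scaling, no filter or the replicate block. KLC1, on the opposite strand, covers 76.7% of XRCC3 exon bases, had 7520 reads against 9455 for XRCC3 and was not called (log2 fold change 0.03, edgeR adjusted p = 0.880). Without a known strand setting, reads from the shared bases cannot be told apart. The other paralogs, RAD51C and RAD51D, both had a fold of 0.990. RAD51B, at 61 to 115 reads per library, had a fold of 1.34 with an interval from 0.920 to 1.94. RAD52, an annealing protein, had 0.961, and the translocases RAD54L and RAD54B, which remodel paired DNA, had 0.916 and 0.822. None of these 6 was called under TMM scaling or with offsets, and RAD54B was called lower without docetaxel replicate 1. With offsets RAD54L stood further down, at 0.866-fold (edgeR adjusted p = 0.171, unadjusted p = 0.0175). RAD51C then stood at 1.09-fold (edgeR adjusted p = 0.244, unadjusted p = 0.0331). FSBP, on the same strand, covers 59.1% of RAD54B exon bases, and LRRC41, on the opposite strand, 25.1% of RAD54L.

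None of the 8 Fanconi core genes, UBE2T included, was called under TMM scaling (0 higher and 0 lower by edgeR and limma-voom), or by DESeq2 with its own scaling. At an unadjusted p under 0.05 edgeR had 2 of the 8, against 5136 of all 18040 tested genes. FANCC was at 36.8, 35.7 and 36.3 CPM in control and at 36.6, 42.4 and 44.1 CPM with docetaxel, with replicate 1 inside the control range. The fold of this core bridging subunit was 1.13 (1.03 to 1.25, edgeR adjusted p = 0.0774), the same with offsets (edgeR adjusted p = 0.129), and without docetaxel replicate 1 it was called higher, with and without offsets. FANCG, a scaffold subunit, had a fold of 1.09 (edgeR adjusted p = 0.147), with groups that did not overlap, and 1.00 with offsets. The large subunit FANCA, of which ZNF276 on the opposite strand covers 23.6% of exon bases, had a fold of 1.03 and FANCE, which contacts FANCD2, 1.06. FANCL, the ligase subunit, had 0.933, FANCM, the DNA-binding translocase, 0.938, and FANCF, an adaptor with 108 to 190 reads per library, 0.838.

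UBE2T, the E2 enzyme that hands ubiquitin to FANCL (chromosome 1, 202331657 to 202341980, minus strand), was the most abundant of the 39 per gene length, at 50.7 RPKM in control. It was at 98.5, 97.0 and 97.9 CPM in control and at 97.1, 99.5 and 102 CPM with docetaxel. The groups overlapped, and the fold was 1.02 (0.953 to 1.09, edgeR adjusted p = 0.784). With offsets UBE2T was called higher at 1.12-fold (edgeR adjusted p = 0.0228), a call made in both fits with offsets and in none of the other 14 alternative fits. With offsets and 1 library left out, it was called only without docetaxel replicate 1. The GC content of the UBE2T transcript is 40.1%.

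FANCI and FANCD2, the pair that the core ligase marks, did not pass the test. FANCI (chromosome 15, 89243949 to 89317261, plus strand) was at 53.4, 53.1 and 53.5 CPM in control and at 51.9, 51.9 and 51.3 CPM with docetaxel. Its docetaxel libraries all lay below control by a narrow margin, and the fold was 0.969 (0.894 to 1.05, edgeR adjusted p = 0.680). FANCD2 had a fold of 1.02 (0.945 to 1.11) and 1.09 with offsets (edgeR adjusted p = 0.188). FANCD2 has partial pseudogene copies, so some of its reads may have been split or dropped.

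Of the 4 genes that act beside or after this pair, 2 were called lower. POLQ, DNA polymerase theta, which joins ends through microhomology where recombination fails (chromosome 3, 121431427 to 121546641, minus strand), was at 24.5, 25.3 and 24.3 CPM in control and at 20.5, 21.5 and 20.6 CPM with docetaxel. The groups were well apart, with a fold of 0.844 (0.754 to 0.944, edgeR adjusted p = 0.0293). The call was lost with the replicate block, with offsets (0.927-fold, edgeR adjusted p = 0.539), and without any control replicate or docetaxel replicate 3. BRIP1, a helicase that binds BRCA1 and is also FANCJ (chromosome 17, 61681266 to 61863521, minus strand), was at 14.7, 17.2 and 17.5 CPM in control and at 14.7, 13.4 and 11.4 CPM with docetaxel. The first replicates of both groups were almost equal, and the others were apart. The fold was 0.798 (0.688 to 0.927, edgeR adjusted p = 0.0299), and 0.941 with offsets (edgeR adjusted p = 0.762). The BRIP1 call was also lost with the replicate block and without control replicate 2 or 3 or docetaxel replicate 2 or 3. SLX4, a nuclease scaffold, had a fold of 0.916 and FAN1, a crosslink nuclease, 1.05, and neither was called. With offsets SLX4 stood further down, at 0.849-fold (edgeR adjusted p = 0.201, unadjusted p = 0.0237), and FAN1 at 1.10-fold (edgeR adjusted p = 0.712). MTMR10, on the opposite strand, covers 24.3% of FAN1 exon bases.

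The order of levels was wide. Per gene length, control means ran from 0.0789 RPKM for RAD50 to 50.7 for UBE2T, with a median of 2.99 over the 39. EXO1 followed UBE2T at 25.3 RPKM, then BABAM1 at 16.8, BABAM2 at 16.5 and RAD51AP1 at 15.6. BRCA1 stood at 2.89 RPKM, BARD1 at 1.26, PALB2 at 1.42 and BRCA2 at 0.813. Lengths are the deposited ones, which count all annotated exon bases of a gene, so a gene with long rare exons, such as FANCL at 37977 bases, reads low on this scale. The means of BABAM1 and BABAM2, neighbours in this order, were closer than the range of BABAM1 over the control libraries. The fitted fold change was 1.25 or more in either direction for 5 of the 39 genes: BARD1, XRCC2 and BRIP1, which were called, and RAD50 and RAD51B, which did not pass the test.

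**Figure D3:**
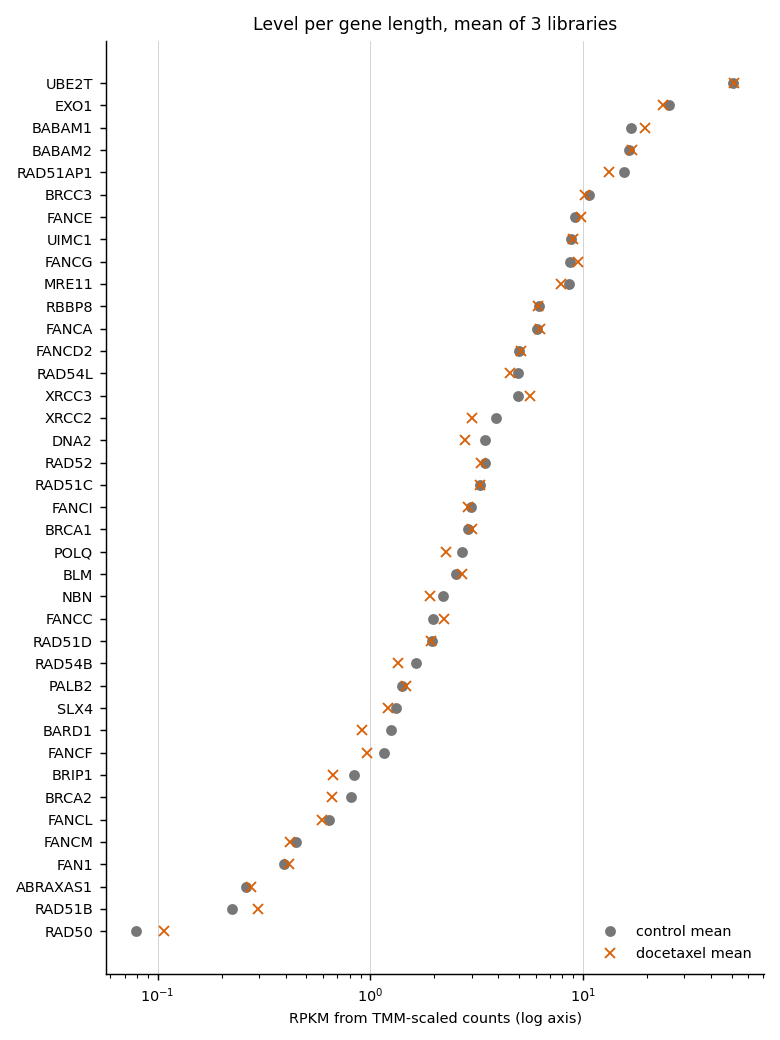
Control mean (circles) and docetaxel mean (crosses) of 3 libraries in RPKM on a log axis, for the 39 genes in order of control level. UBE2T is highest at 50.7 RPKM and RAD50 lowest at 0.0789 RPKM in control.

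The direction of change followed base composition among these genes, as it did over all tested genes. The 6 genes called lower all lay in the lowest of 5 equal groups of tested genes by transcript GC content, between 36.1% for RAD51AP1 and 41.1% for POLQ. BABAM1 and XRCC3, the 2 called higher, had 56.5% and 63.8%. In that lowest group 14 of 17 members had a log2 fold change below 0 and 6 were called lower, where 28.8% of all its tested genes were called lower. The median log2 fold change in that lowest group was -0.20 for the members and -0.19 for all genes. In the 2 highest groups 2 of 7 members were called higher, where 22.6% of all tested genes were. Across the 39 genes, which share the same 6 libraries, GC content and log2 fold change had a Spearman's rho of 0.62 and a Pearson's r of 0.47, as a description. Over all 16421 tested genes with a GC content the rho was 0.54. With offsets it was -0.02 for the 39 and -0.0099 for all genes. As a set, 30 of the 39 had a GC content under the median of all tested genes, 48.9%.

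**Figure D4:**
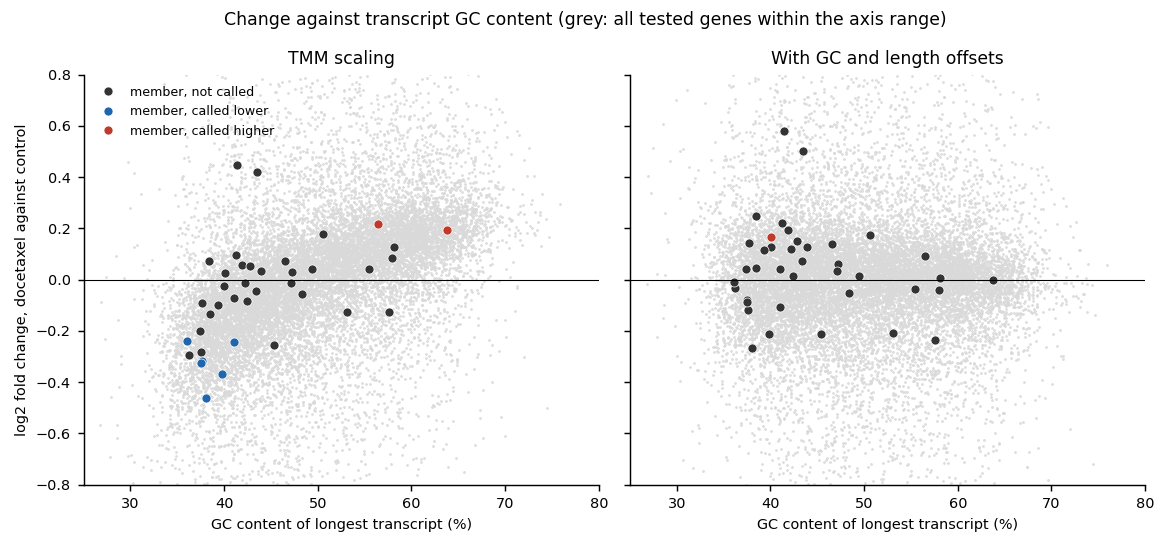
Log2 fold change, docetaxel against control, against the GC content of the longest transcript, for all tested genes within the axis range (grey) and the 39 genes (large points), under TMM scaling (left) and with GC and length offsets (right). On the left the 6 genes called lower sit at the low-GC end and BABAM1 and XRCC3 at 56.5% and 63.8%; on the right the trend is flat.

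The contrast in composition can be read in the coding sequences of 5 called genes. Shown are the 150 bases at the middle of the longest annotated coding sequence, spliced, 5′ to 3′ on the gene's strand, from GENCODE 29 on GRCh38, with G and C in capitals. The stretches of BARD1 (chr2:214780635-214780784, minus strand, exonic), XRCC2 (chr7:152648990-152649139, minus strand, exonic) and RAD51AP1 (chr12:4548175-4548832, plus strand, across 2 exons) come from genes called lower. Those of BABAM1 (chr19:17273977-17275823, plus strand, across 3 exons) and XRCC3 (chr14:103699544-103703289, minus strand, across 2 exons) come from the genes called higher.
BARD1: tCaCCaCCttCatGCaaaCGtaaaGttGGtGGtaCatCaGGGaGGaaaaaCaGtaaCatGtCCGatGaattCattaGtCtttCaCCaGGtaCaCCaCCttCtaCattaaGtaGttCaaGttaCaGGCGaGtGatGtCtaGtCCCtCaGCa
XRCC2: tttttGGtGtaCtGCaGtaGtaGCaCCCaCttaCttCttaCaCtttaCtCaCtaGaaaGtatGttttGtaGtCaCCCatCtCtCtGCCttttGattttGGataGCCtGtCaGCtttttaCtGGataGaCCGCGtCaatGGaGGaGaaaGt
RAD51AP1: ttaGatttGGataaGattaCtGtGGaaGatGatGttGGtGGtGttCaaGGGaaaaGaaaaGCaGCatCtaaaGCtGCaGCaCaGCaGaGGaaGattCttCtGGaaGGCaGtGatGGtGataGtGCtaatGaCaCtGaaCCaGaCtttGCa
BABAM1: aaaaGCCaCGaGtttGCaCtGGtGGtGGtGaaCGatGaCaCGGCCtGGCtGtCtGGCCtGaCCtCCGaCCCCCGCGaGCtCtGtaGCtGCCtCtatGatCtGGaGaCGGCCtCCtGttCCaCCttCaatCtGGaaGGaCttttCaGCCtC
XRCC3: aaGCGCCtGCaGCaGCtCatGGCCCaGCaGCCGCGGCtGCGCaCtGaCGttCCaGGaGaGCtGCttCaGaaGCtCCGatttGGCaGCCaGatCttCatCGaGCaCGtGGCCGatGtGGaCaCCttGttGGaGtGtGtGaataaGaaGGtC
G and C made up 65, 62 and 64 of the 150 bases for BARD1, XRCC2 and RAD51AP1, and 87 and 88 for BABAM1 and XRCC3. At the third position of codons over the whole coding sequence, the GC share ran from 31.1% to 39.9% in the 6 genes called lower, and it was 71.4% in BABAM1 and 76.9% in XRCC3. In the 31 genes not called it ran from 26.7% to 69.2%.

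Recombination genes are often described as targets of E2F factors, which drive S phase transcription. RefSeq promoter windows (GRCh38.p14, 250 bases before to 50 after a start) were found for 35 of the 39 genes and searched on both strands for TTTGGCGC, TTTGCCGC, TTTCGCGC and TTTCCCGC, which are spellings of the E2F site. EXO1, FANCA, FANCC, FANCD2 and XRCC2, 5 of the 35, held a match (14.3%), against 3.99% of all 27305 genes with a window. FANCC held 2, of which the one nearer its start is shown. The sites are shown with 10 bases on each side, on the gene's strand, with the match in capitals.
EXO1 (chr1:241848198-241848225, plus strand): aaggtcagccTTTCGCGCgctgtgtagg
FANCA (chr16:89816802-89816829, minus strand): ctacaccgcgGCGGCAAAgccaaacgca
FANCC (chr9:95317738-95317765, minus strand): tcgtcggaatTTTCCCGCgacgccgcgg
FANCD2 (chr3:10026425-10026452, plus strand): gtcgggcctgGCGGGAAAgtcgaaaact
XRCC2 (chr7:152676103-152676130, minus strand): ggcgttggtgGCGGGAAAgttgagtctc
The matches in FANCA, FANCD2 and XRCC2 read as the reverse complement of a listed spelling. Of these 5 genes XRCC2 was called lower and the other 4 were not called, with folds from 0.944 for EXO1 to 1.13 for FANCC. The cell cycle site TTTGAA, searched the same way, was in 4 of the 35 windows, those of BRIP1, FANCC, POLQ and UBE2T, against 18.2% of genes. A match is a string of letters and shows no binding.

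Of 35 tested genes among 36 further recombination and Fanconi genes, 4 were called higher and 5 lower, with a median log2 fold change of 0.03. Of all tested genes 9.14% were called higher and 7.82% lower. MND1 had too few reads to test. USP1, which removes ubiquitin from FANCD2, had a control mean of 170 ± 5.13 CPM and a docetaxel mean of 146 ± 6.81 CPM (SD, 3 libraries each), a fall with an edgeR adjusted p of 0.000773. RMI1, a BLM partner, had a log2 fold change of -0.51 and ERCC4, the nuclease XPF, of -0.56. CENPX, a FANCM partner, had 0.19, and -0.0058 with offsets. In the edgeR fit with offsets 0 of the 35 were called in either direction, against 4.04% of all tested genes. At an unadjusted p under 0.05 that fit had 8 of the 35, against 2987 of all 18040. ERCC4 then stood at -0.37 (edgeR adjusted p = 0.0707). The 5 genes called lower without offsets (USP1, RMI1, ERCC4, FANCB and FIGNL1) had a GC content from 36.0% to 40.9%. The 4 called higher (CENPX, FAAP20, FAAP100 and EME2) had 61.2% to 65.8%.

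Cell cycle genes were measured beside them, because recombination genes follow the cycle. Of all tested genes 9.14% were called higher and 7.82% lower, and with offsets 2.20% and 1.85%. Of 22 S phase and replication genes 4 were called higher and 2 lower. MCM7, a helicase subunit, had a log2 fold change of 0.17 and CDT1, a licensing factor, 0.18, while UHRF1, a chromatin factor of replicating DNA, had -0.22. With offsets 0 were called higher and 2 lower, UHRF1 among them at -0.31, while CDT1 stood at -0.0447. Of 18 G2 and mitosis genes 4 were called higher and 2 lower. CDC20, an activator of the anaphase-promoting complex, had 0.23 and AURKB, a mitotic kinase, 0.18, while CDK1 had -0.22 and TOP2A -0.16. With offsets 3 of the 18 were called higher (TPX2, CCNB1 and CENPF) and 0 lower, with CDK1 at -0.0045 and TOP2A at 0.0072. In that fit 17 of the 18 had a log2 fold change above 0 and 1 below, with a median of 0.07. Of the 22 S phase genes 10 were above 0 and 12 below, and of all 18040 tested genes 9259 were above 0. Under TMM scaling without offsets 10 of the 22 S phase genes were above 0 and 12 below, with a median of -0.04. Of the 18 mitosis genes 12 were above 0 and 6 below, with a median of 0.02. The summed level of the S phase list ran from 2906 to 2967 CPM in control and from 2982 to 3017 CPM with docetaxel. That of the mitosis list ran from 2648 to 2661 and from 2712 to 2807 CPM. Sums carry no offsets and weigh abundant genes most, so they do not show a rise across the S phase list. MCM7 alone averaged 454 CPM in control and 511 CPM with docetaxel. The summed level of the 39 genes ran from 1254 to 1288 CPM in control and from 1247 to 1252 CPM with docetaxel. The part of cell cycle position in the values of the 39 genes was not tested, and in bulk RNA fewer cells in a phase and less RNA per cell cannot be told apart.

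How many of the 39 were called changed when 1 library was left out, as did the count over all genes. Each such fit sets 2 libraries against 3, and the part of this smaller number in lost calls was not tested. Without control replicate 1, 2 or 3 the counts were 2 higher and 3 lower, 1 and 1, and 0 and 4. Without docetaxel replicate 1, 2 or 3 they were 2 and 10, 0 and 3, and 0 and 2. The calls over all tested genes moved with the same omissions, from 1649 higher and 1410 lower in the full fit. They were 1397 and 1214, 990 and 740, and 1328 and 1094 without control replicate 1, 2 or 3. They were 1353 and 1841, 1089 and 968, and 1056 and 768 without docetaxel replicate 1, 2 or 3. XRCC2 was the gene called in each of these 6 fits.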

How the data were processed

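Whole-number gene counts were deposited by the authors in 1 table, with a gene length column. They were made with featureCounts 2.0.1 on GRCh38, with MultiQC 1.11 reports, per the submitters' processing notes. No source used here gives the aligner, annotation release, strand setting or handling of multi-mapping reads. GENCODE 29 holds a position for 57356 of the 78932 rows, so the counting used another gene set. Exon overlaps given here are those of GENCODE 29 and may differ in that set. Columns were assigned by the library names in the labels. Symbols came from an Ensembl table, coordinates and GC content (longest transcript, available for 91.0% of tested genes) from GENCODE 29. Counts were filtered with filterByExpr, scaled by TMM and tested with edgeR 4.0.16 in R 4.3.3 (robust glmQLFit, glmQLFTest, two-sided, Benjamini-Hochberg over 18040 genes). Intervals are 95%. Offsets came from loess fits (span 0.5) of each library's deviation on GC content, then log2 length. Tested genes without a GC content took the length part only, and the shares over all tested genes include them. All 39 members had a GC content. The alternatives tried were other scalings (RLE, upper quartile, library size), other tools (limma-voom with limma 3.58.1, DESeq2 1.42.0), no filter or at least 1 CPM in 3 libraries, a replicate block, the offsets, and each library left out. Offsets with each library left out were added after seeing the data. The labels call the replicates biological but name no separate cultures: the p-values reflect only how these 6 libraries vary, which may be technical. Counting error sets a limit of 3 counts, at most 0.0777 CPM, for a gene at 0. Within groups, library pairs differed by more than counting noise (dispersion index 4.92 to 12.7). On simulated data with 200 changed genes among 17561 tested, the test recovered 47% of 1.2-fold and 99% of 1.5-fold changes. The simulated libraries held no trend with GC content, and only genes above a CPM cut were changed. The rates therefore do not cover low-count genes such as RAD50, RAD51B, ABRAXAS1 and FANCF. The members and gene lists were chosen with earlier results of these data known. Named with full values were BRCA1, BARD1, BRCA2 and PALB2, every called gene, and the gene with the smallest p in a role group without one; of other lists, the 4 smallest p, of which 1 gene is not reported here.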

Additional observations from a re-analysis of the deposited data

How the results depend on the processing

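Under RLE or upper-quartile scaling, limma-voom and a filter of 1 CPM in 3 libraries, the same 8 of the 39 genes were called, and DESeq2 added BRCA2. Library size scaling called 1 gene higher and 9 lower, and no filter 1 higher and 7 lower, both without XRCC3 and each with 7 of the 8 genes kept. The replicate block also called 1 higher, with 4 lower and 5 of the 8 genes kept. The labels tie replicate numbers to no shared culture, and deviations of same-numbered libraries correlated at 0.0070 to 0.016, although each library correlated best with its own number. With GC and length offsets, with or without the replicate block, 1 of the 39 was higher and 0 lower, and of the further recombination genes 0 were higher and 0 lower. With 1 library left out, 0 to 2 of the 39 were higher and 1 to 10 lower, and of the further genes 2 to 4 and 3 to 6. Offsets with 1 library left out gave 0 to 2 higher and 0 to 1 lower of the 39, and 0 to 1 and 0 to 1 of the further genes. Over all tested genes 1649 were called higher and 1410 lower, against 1096 and 1866 with library size scaling, 396 and 333 with offsets and 261 and 217 with both offsets and block.

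BRCA1 was not called in any fit, with a log2 fold change from 8.06e-05 without control replicate 3 to 0.20 with offsets. Signs turned with offsets, without and with the replicate block, for RAD51C (0.121 and 0.12), RAD51D (0.0342 and 0.0363), XRCC3 (-0.00188 and -0.00156), RBBP8 (0.127 and 0.129), MRE11 (0.0466 and 0.0468), NBN (0.0397 and 0.0412), EXO1 (0.0137 and 0.0127), BRCC3 (0.0399 and 0.0399), FANCA (-0.0366 and -0.0365), FANCE (-0.0418 and -0.0418), FANCI (0.0727 and 0.0727), FANCL (0.113 and 0.113), FANCM (0.143 and 0.14), CENPX (-0.0058 and -0.00649), CDT1 (-0.0447 and -0.0443), TOP2A (0.00717 and 0.00741). They turned with library size scaling for UIMC1 (-0.00909), FANCD2 (-0.00644), UBE2T (-0.0116). Without 1 library the ranges crossed 0 for ABRAXAS1 (-0.0736 to 0.204), FANCD2 (-0.00266 to 0.0479), PALB2 (-0.074 to 0.151), RAD51D (-0.0849 to 0.0572), RAD52 (-0.201 to 0.0142), RBBP8 (-0.0999 to 0.0253), UIMC1 (-0.0358 to 0.0828). The offsets remove by construction the trend with GC content and length. Why that trend differed between libraries was not tested. Depth limited RAD50, RAD51B and ABRAXAS1, whose intervals were the widest of the 39.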
